A study of Mus musculus with 12 samples.

Results

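Control-only peaks are stretches of RNA that were called as enriched by an antibody against N6-methyladenosine (m6A) in control mouse skin and that share no base, on the same chromosome and strand, with any peak called in UV skin. There were 2671 of them among the 18020 peaks called in control skin, or 14.8%. The other 15349 control peaks shared at least 1 base with 1 of the 24969 UV peaks. The members were chosen by the peak calls, which rest on the same antibody-enriched and input reads that are described here. Every difference in antibody enrichment between control and UV skin is therefore a description of the chosen peaks and supports nothing about them. Tests are given for the input level of the host genes, which the rule did not use directly, although the input reads of the peaks themselves entered the calls.

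The study compared skin labelled Control with skin labelled UV in mice, with 3 samples in each condition. Each sample gave an immunoprecipitated (IP) library, made from RNA bound by the m6A antibody, and an input library made from RNA that was not selected. The kind, dose and timing of the UV exposure, and the strain, age and body site of the mice, are stated in none of the sources used here. No genotype or agent other than UV is named, and nothing says whether samples came from separate animals, so p-values measure only the spread between these samples.

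m6A is the most common internal modification of messenger RNA. A writer complex around Mettl3 and Mettl14 places it within a short sequence motif whose most frequent core is GGAC, with the third base methylated. Virma, also known as KIAA1429 and named in the study's title, is a scaffold of that complex. The modified base is read by proteins such as the YTH family and the Igf2bp proteins and is linked to RNA decay, splicing and translation. It is typically found around stop codons, in last exons and in long internal exons. In antibody mapping a peak is called where IP reads exceed input reads by enough to pass a threshold, so weak or shallowly covered sites can pass it in 1 set of libraries and miss it in another.

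The letters under a control-only peak could be read for 48 peaks. These lie whole within the RefSeq windows around gene starts on GRCm38.p6, out of 2213 control-only peaks of up to 300 bases in a single exon outside 1 chromosome that is not analysed here. GGAC, searched on the transcribed strand only, occurred in 17 of the 48, or 35.4%. Among control peaks that overlap a UV peak it occurred in 43 of 102 (42.2%), and among peaks called only in UV in 96 of 206 (46.6%). The median length of these peaks was 90.0, 119.5 and 91.0 bases in the same order. Stretches of the same lengths at the centre of all 32851 windows held GGAC in 26.3%, 33.3% and 30.6%. The longer motif GGACT, which contains GGAC, occurred in 3, 16 and 28 of these peaks. The 48 peaks lie near annotated gene starts by construction and do not stand for all control-only peaks. The start need not be that of the host gene. The Spon1 peak lay in a short internal exon, 6611 exonic bases from the Spon1 start, in the window of Gm51454. The Slc30a1 peak lay 764 exonic bases from the Slc30a1 start, in the window of 1700034H15Rik. The stretches below, of 30 bases each and written 5′ to 3′ with GGAC in capitals, come from 5 of the 17 peaks and show the motif in its surroundings.
Slc30a1, chr1:191907530-191907559, plus strand: cgggccgggcgccGGACcaggaggagacca
Spon1, chr7:114036613-114036642, plus strand: tcacatgattcgaacccGGACaatccaaat
Pank4, chr4:154964171-154964200, plus strand: gcgggagcggcggGGACagtctGGACaaga
Eif1ad, chr19:5366920-5366949, plus strand: ggaagagttaaagGGACGGACgaagagggg
Pigp, chr16:94370526-94370555, minus strand: gcgcctgcgcattGGACtgagtggggctga

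The peak in Slc30a1, which encodes a zinc exporter, lay in the first exon at chr1:191907486-191907576. Its log2 IP over input was 0.70, 1.15 and 0.63 in the control samples and 0.60, 0.70 and 0.78 in the UV samples. The mean IP count was 1185 reads in control and 1162 in UV, so the 2 conditions overlapped at a site called in 1 of them. In Spon1, which encodes a secreted protein of the extracellular matrix, the ratios were 1.15, 0.93 and 1.17 in control and 0.12, 1.18 and 0.67 in UV. UV 1 and UV 3 lay below the controls there, and UV 2 at their level. Around the pair of GGAC motifs in Pank4, a member of the pantothenate kinase family, the ratios were 1.43, 1.08 and 1.14 in control and 0.80, 0.99 and 1.23 in UV.

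The 12 libraries held between 24126662 and 92163619 reads in genes, in Control 2 input and UV 2 IP. Summed over each condition's 3 libraries, IP depth was 144064112 reads in control and 171158177 in UV, and input depth was 141874685 and 154158768. Keratinocyte marker genes summed to 41780 to 109476 CPM of input (reads scaled to library size and TMM factor), and skeletal muscle genes to 5691 to 28709. Replicates differed by far more than sampling noise. Peak counts did not use strand: of 171 pairs of rows on opposite strands with ends within 10 bases of each other, 168 had summed reads within 10% of each other. Of the control-only peaks, 175 (6.55%) lie over an exon of a gene on the other strand, and their reads cannot be assigned to 1 of the genes. In bulk skin, fewer cells of a type and less RNA per cell cannot be told apart.

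Control-only peaks were short and thinly covered. The median span was 120 bases, against 241 for control peaks that overlap a UV peak, and 1165 (43.6%) spanned under 100 bases, against 11.9%. The median of the mean control IP count was 30.3 reads, against 249. Under 20 control IP reads were found at 971 control-only peaks (36.4%), against 4.41% of the overlapping control peaks. At the other end, 136 control-only peaks (5.09%) had at least 1000 control IP reads, against 21.0%. Peaks called only in UV were also thin, with a median of 38.7 control IP reads and 49.0 UV IP reads.

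**Figure D1:**
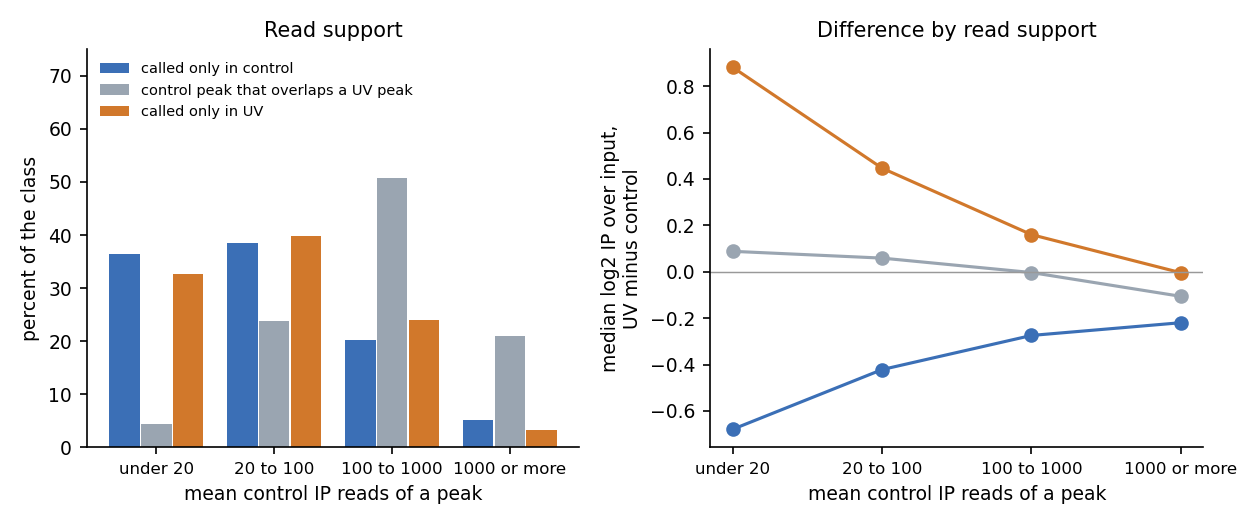
Left, percent of each peak class by mean control IP reads per peak; right, median UV minus control difference in log2 IP over input in the same bins. Control-only peaks (blue) fall mostly below 100 reads, and their median difference runs from -0.68 in the lowest bin to -0.22 in the highest.

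In UV skin the control-only peaks kept most of their IP reads. The median IP level per sample was 0.658, 0.697 and 0.678 CPM in control and 0.499, 0.546 and 0.526 CPM in UV. The median input level was 0.272, 0.249 and 0.241 CPM in control and 0.267, 0.256 and 0.269 CPM in UV. The median log2 IP over input was 1.14, 1.26 and 1.17 in Control 1 to 3 and 0.67, 0.84 and 0.73 in UV 1 to 3. The control medians all lay above the UV medians, as the choice of peaks makes them. Control peaks that overlap a UV peak had medians of 1.26, 1.46 and 1.33 in control and 1.33, 1.36 and 1.34 in UV. Peaks called only in UV showed the mirror image, with 0.63, 0.87 and 0.61 in control and 1.15, 1.16 and 1.18 in UV.

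**Figure D2:**
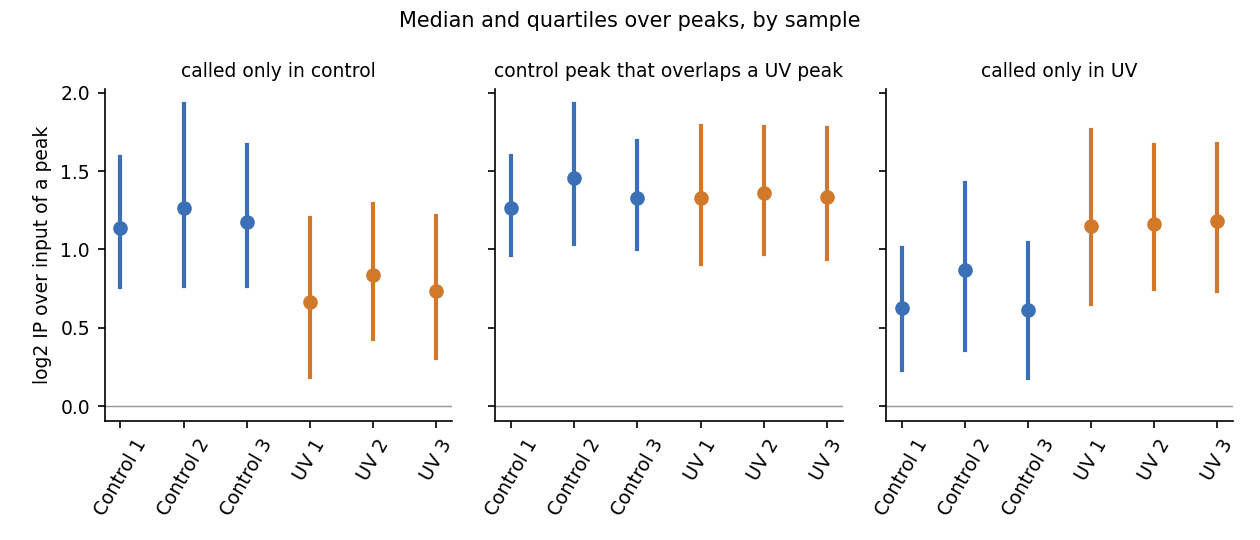
Median (points) and quartiles (lines) over peaks of log2 IP over input, by sample, for 3 classes of peak. The UV medians of control-only peaks lie between 0.67 and 0.84, below the control medians and above 0; peaks called only in UV show the opposite order.

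The UV enrichment of control-only peaks was lower than that of other peaks, and how many lay above input depended on the scaling. With factors from the gene table, the mean log2 IP over input in UV was above 0 for 2510 (94.0%), against 98.5% of all peak rows, and all 3 UV samples were above 0 for 1884 (70.5%). The mean in UV was at least 1, a 2-fold excess of IP over input, for 868 (32.5%), against 74.8% of the overlapping control peaks. For 426 (15.9%) the UV mean was at or above the control mean, against 45.3% of the overlapping control peaks and 54.2% of all rows. In edgeR's quasi-likelihood test, 2260 control-only peaks passed the filter on low counts; 1966 of them were called enriched in control, against 87.8% of all peaks tested, and 1418 in UV, against 93.3%. The peaks were chosen on these contrasts, so the shares describe the choice. Scaling by factors from the peak table, which centres the typical peak near 0, left 45 of 2014 called above input in control and 12 in UV. Under that scaling 285 were called below input in control and 551 in UV. Of all 39910 peaks tested that way, 5199 were called above input in control and 6800 in UV, and 6729 and 7276 below. With factors from the gene table, 8 and 19 of the 2260 were called below input, and 180 and 195 of all peaks tested.

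For 581 control-only peaks (21.8%) all 3 control ratios lay above all 3 UV ratios, against 9.23% of all peak rows. The reverse order held for 20 (0.749%), against 10.2%. By library size only, the same counts were 446 and 33 control-only peaks, and over all 42989 rows they went from 3967 to 1958 and from 4382 to 6559. The median difference, UV minus control, was -0.39 on the log2 scale for control-only peaks and 0.034 over all rows. It was -0.68 at peaks with under 20 control IP reads, -0.42 at 20 to 100, -0.27 at 100 to 1000 and -0.22 at 1000 or more. The interaction test for a change of IP over input called 0 of the 2260, against 0% of the 41273 peaks tested, while 230 of them, and 3356 of all, had an unadjusted p below 0.05, and DESeq2 called 1 of them lower. With a block for the sample, which ties its IP to its input library, 25 were called lower in UV (0.596% of all peaks tested were) and 0 higher (0.383% were). These counts, too, are on the contrast that chose the peaks.

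The 25 peaks had a mean control IP of 7.45 to 18462 CPM and were singled out after their values were seen. In Eif3b, which encodes a core subunit of the translation initiation factor eIF3, the peak at chr5:140419328-140419477 in the first exon had log2 IP over input of 1.13, 1.33 and 1.23 in control and 0.37, 0.71 and 0.58 in UV. All control values lay above all UV values, a difference of -0.68. The IP level hardly moved, at 113, 106 and 118 CPM in control and 112, 128 and 115 CPM in UV. The host gene's input rose in UV, from 217, 219 and 228 CPM to 297, 298 and 271 CPM (log2 change 0.38 ± 0.08 (SE), adjusted p = 0.0342 in edgeR). Tax1bp1, which encodes an autophagy receptor, had the same arrangement: ratios of 0.93, 0.81 and 0.88 in control and 0.36, 0.45 and 0.45 in UV, over host input of 302, 290 and 321 CPM in control and 404, 398 and 401 CPM in UV (log2 change 0.39 ± 0.08 (SE), adjusted p = 0.0317 in edgeR).

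Hnrnpk, which encodes an RNA-binding protein of the hnRNP family, carried its control-only peak in a short internal exon at chr13:58402082-58402142. The ratios were 1.17, 1.28 and 0.95 in control and 0.45, 0.59 and 0.73 in UV, with no overlap. The peak in the last exon of Gja1, the gene of the gap junction protein connexin 43, lies at chr10:56389912-56390091 and is 118 bases from the nearest UV peak. Its ratios were 1.00, 1.24 and 1.05 in control and 0.47, 0.62 and 0.65 in UV. Gja1 also held 3 control peaks that overlap UV peaks, so this was 1 stretch of a transcript otherwise called in both conditions. Phf6, a chromatin-associated zinc finger gene, held 2 of the 25; the stronger had ratios of 1.03, 0.62 and 0.93 in control and 0.06, 0.01 and 0.15 in UV, all near 0.

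The largest differences among peaks with at least 1 CPM of control IP, ranked without predicted and clone-based gene names, came from thin peaks. A peak left out by its name, in RP23-306P12.3, had ratios of 2.48, 1.78 and 1.82 in control and 0.14, -0.58 and 0.00 in UV. It differed by -2.18, with 62, 72 and 21 IP reads in control and 2, 1 and 0 in UV. Its host input was called lower in UV (log2 change -3.42 ± 0.47 (SE), adjusted p = 0.00895 in edgeR). In Clcn6, which encodes a chloride transporter of the endosomal system, the IP counts were 42, 80 and 22 reads in control and 15, 30 and 11 in UV. The ratios were 1.65, 3.05 and 3.15 in control and 0.04, 0.90 and -0.34 in UV, and the difference was -2.41. In Wnt5a, a secreted Wnt ligand, the peak lay in the last exon, 268 bases from a UV peak, with ratios of 1.25, 1.99 and 1.36 in control and -0.09, 0.74 and -0.03 in UV. The other 8 peaks named by that rule, in Tcf20, Tceanc, Fbxo30, Zfp174, Ngef, Zfp574, Ptafr and Fam189a2, differed by -1.37 to -1.13. Tcf20 shows the spread at this depth, with control ratios of 1.04, 2.52 and 0.52.

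The other direction held 5 named peaks. In Ccni, a cyclin family gene, the ratios were -0.35, 0.54 and 0.37 in control and 0.63, 0.67 and 0.77 in UV. The UV samples were the higher ones, without overlap, at a peak that was called only in control. Krtap15, which encodes a hair keratin-associated protein, had 1.85, 1.85 and 0.71 in control and 3.12, 2.03 and 2.03 in UV. Ifi211, an interferon-inducible gene, had -0.43, -0.51 and -0.23 in control, so its IP reads lay below input in every control sample. Tnxb, which encodes the matrix protein tenascin X, and Ska2, of the spindle and kinetochore complex, differed by 0.37 and 0.39.

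**Figure D3:**
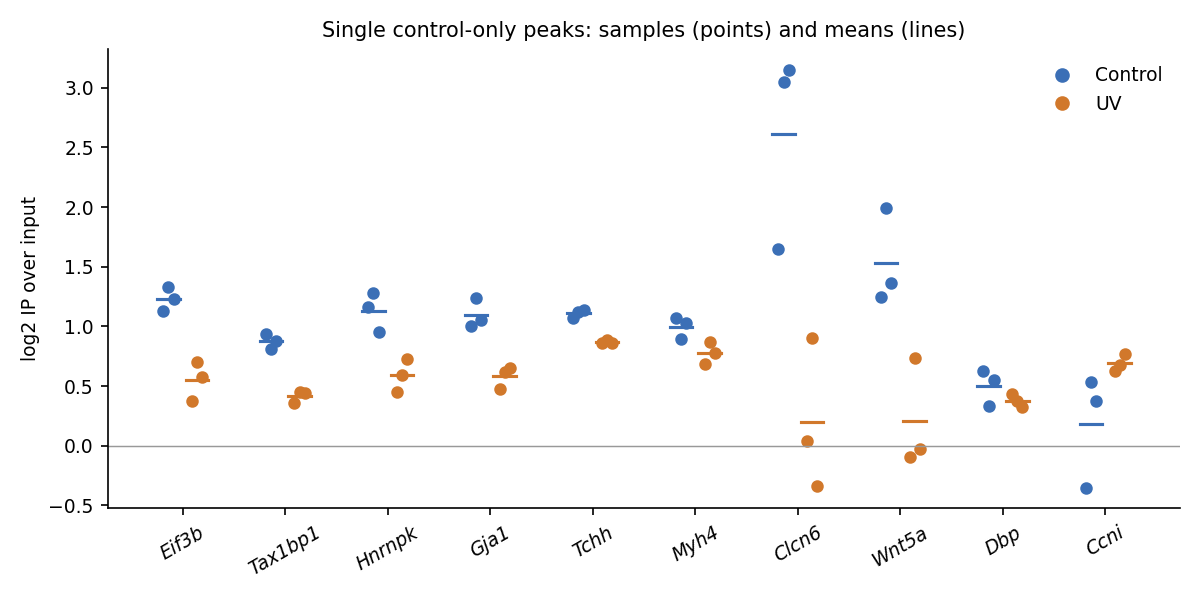
Log2 IP over input of 10 control-only peaks in the 3 control (blue) and 3 UV (orange) samples, with the mean of each condition as a line. The Eif3b, Tax1bp1, Hnrnpk, Gja1, Tchh and Myh4 peaks separate by small amounts, Clcn6 by -2.41, Dbp overlaps and Ccni runs the other way.

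IP reads of a peak and input reads of its host gene often moved the same way. IP reads were lower in UV for 51 of 2200 control-only peaks tested in edgeR, against 0.836% of all peaks tested, and higher for 7, against 1.08%. Of the 51, which sit in 46 host genes, 48 had a negative log2 change of host input and 30 had a host called lower at the gene level. None had a host called higher. The hosts Nsl1 and Clec9a changed by 0.18 and 0.05 without being called, and the host Bloc1s6os was not tested. Of the 7 with more IP reads, 6 had a host called higher. The same pairing was not counted over all peaks with changed IP reads, so these counts do not set control-only peaks apart. The count of 51 fell to 17 without Control 1, 15 without UV 1 and 18 without UV 2. The count of 7 fell to 1 without any of these 3 and to 4 without Control 2 or UV 3. Calls over all peaks tested fell too. Without Control 1, UV 1 and UV 2, lower calls went from 342 to 93, 63 and 112, and higher calls from 440 to 100, 65 and 170. Higher calls were 357 without Control 2 and 259 without UV 3. The genes below were chosen after their values were seen.

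Skint7 and Skint5 belong to the family that supports selection of gamma delta T cells of the epidermis. The Skint7 peak at chr4:111988014-111988223 had 188, 266 and 58 IP reads in control and 0, 4 and 18 in UV. Host input of Skint7 was 7.42, 8.22 and 6.33 CPM in control and 1.28, 1.01 and 2.14 CPM in UV (log2 change -2.29 ± 0.26 (SE), adjusted p = 0.00478 in edgeR). In Skint5 the IP level was 8.45, 9.75 and 9.66 CPM in control and 3.46, 2.46 and 4.66 CPM in UV, and its host input fell as well (log2 change -1.60 ± 0.24 (SE), adjusted p = 0.0118 in edgeR). The Skint5 ratio moved little, at 0.54, 0.47 and 0.71 in control and 0.48, 0.20 and 0.19 in UV.

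T cell genes also stood among the hosts that fell. Input of Prf1, the perforin of cytotoxic cells, was 0.423, 0.676 and 0.578 CPM in control and 0, 0.11 and 0.0747 CPM in UV. Cd7, a T and natural killer cell surface protein, went from 0.211, 0.498 and 0.53 CPM to 0, 0.0366 and 0.0299 CPM. The 9 T cell markers in the list summed to 33.9 to 42.2 CPM in control and 22.7 to 25.4 CPM in UV, 3 of them were called lower, and none of the list's genes held a control peak. What part a smaller share of T cells had in these values was not tested.

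Outside T cell genes, Fcgbp, which encodes an IgG-Fc binding protein of mucus, had 6.40, 4.57 and 5.63 CPM of IP in control and 0.53, 0.88 and 1.28 CPM in UV. Its host input was 231, 139 and 208 CPM in control and 27.9, 38.8 and 42.2 CPM in UV. Host and peak were both lower in every UV sample, and the ratios overlapped, at 1.43, 1.92 and 1.48 in control and 0.38, 1.72 and 2.17 in UV. Slc24a3, a sodium, calcium and potassium exchanger, held 2 of the 51 peaks; in its short internal exon the ratios were 1.00, 1.00 and 0.96 in control and 0.47, 0.64 and 0.71 in UV, and host input fell by 1.97 ± 0.13 (SE) on the log2 scale (adjusted p = 0.00111 in edgeR). Sema3d, a secreted guidance protein, Igfbp3, which binds insulin-like growth factors, and Axin2, a feedback inhibitor and target of Wnt signalling, were also lower at the peak and in host input. The Axin2 host had 55.6, 56.7 and 46.4 CPM in control and 32.2, 33.4 and 36.0 CPM in UV (log2 change -0.65 ± 0.10 (SE), adjusted p = 0.0124 in edgeR).

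Cd247, the zeta chain of the T cell receptor complex, had a peak that fell further than its host input. Its peak fell from 3.36, 3.87 and 3.63 CPM of IP to 1.22, 0.93 and 1.10 CPM. Its host input was 10.6, 12.1 and 10.1 CPM in control and 9.03, 10.1 and 8.65 CPM in UV (log2 change -0.24 ± 0.11 (SE), adjusted p = 0.23 in edgeR). The peak's own input went from 1.86, 2.17 and 1.85 CPM to 0.99, 0.81 and 1.02 CPM, lower in every UV sample.

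Dbp, a transcription factor that follows the circadian clock, was the clearest case of a peak with more IP reads in the condition where it was not called. The control-only peak at chr7:45708359-45709729 had 13.9, 16.8 and 17.1 CPM of IP in control and 58.0, 43.9 and 64.7 CPM in UV. Host input went from 11.8, 15.9 and 14.4 CPM to 53.2, 41.6 and 61.4 CPM (log2 change 1.89 ± 0.16 (SE), adjusted p = 0.00229 in edgeR). The ratio stayed low and overlapped, at 0.63, 0.33 and 0.55 in control and 0.43, 0.37 and 0.33 in UV. Dbp also held 2 peaks called only in UV. Palmd, Ank3, Mid1 and Dgat2l6 were among the other peaks with more IP reads. Dgat2l6, of the acyltransferase family of sebaceous and epidermal lipids, had host input of 20.6, 17.8 and 23.3 CPM in control and 56.2, 55.4 and 39.8 CPM in UV.

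The 2671 peaks sat in 2285 host genes, 1979 of them with a single control-only peak and 306 with 2 or more. Of the 2230 hosts tested on input reads, 70 fell in UV and 63 rose, or 3.14% and 2.83%, against 2.81% and 3.02% of the 24099 genes tested in edgeR. The median log2 change was -0.065 for hosts and -0.021 for all genes. Without single samples, the hosts called lower numbered 24 (Control 1), 120 (Control 3), 16 (UV 1), 19 (UV 2) and 24 (UV 3). Those called higher numbered 11 (Control 1), 7 (UV 1), 13 (UV 2) and 12 (UV 3). Over all genes tested, from 676 lower and 728 higher, lower calls went to 268, 863, 118, 158 and 167 in the same order. Higher calls over all genes went to 177, 101, 161 and 169. With the replicate number as a block, which the labels do not give as a pairing of control with UV, 39 hosts fell and 25 rose. Of all genes tested, 344 fell and 369 rose with that block. Among the hosts that rose were Brca2 and Lig1, genes of DNA repair and replication, with log2 changes of 0.57 ± 0.11 and 0.41 ± 0.08 (SE), and the growth factor genes Pdgfa and Pdgfc, with 0.50 ± 0.09 and 0.75 ± 0.14. Among those that fell were Wnt10b, a Wnt ligand of the hair follicle, at -0.97 ± 0.22, and Adam12, a metalloprotease, at -0.45 ± 0.10.

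The 82 control-only peaks in hosts that fell had a median difference in log2 IP over input of -0.53. The 75 in hosts that rose had -0.37, and the 2457 in hosts that were tested and not called had -0.38. The control ratios lay wholly above the UV ratios for 18, 26 and 526 of these, or 22.0%, 34.7% and 21.4%. Over all peak rows the share was 9.23%. Those rows were not split by host change, so these values do not set control-only peaks in any group of hosts apart.

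Position set many control-only peaks beside UV peaks. The gap to the nearest UV peak on the same strand had a median of 1836 bases, with quartiles of 239 and 30899. It was under 100 bases for 342 peaks (12.8%) and under 1000 for 1198 (44.9%), and 1004 (37.6%) lay at least 10000 bases away. Of the peaks called only in UV, 5.65% lay under 100 bases from the nearest control peak, 33.1% under 1000 and 46.0% over 10000. There were 18020 control and 24969 UV peaks, and the part of these numbers in the gaps was not tested. The closest control-only peak was in Gm13889, a predicted gene, 4 bases from a UV peak, with ratios of 1.33, 1.82 and 2.23 in control and 2.33, 2.64 and 0.19 in UV. Just inside the overlap that keeps a control peak out, in Cnga3, a cyclic nucleotide-gated channel, the ratios were 1.86, 1.74 and 3.34 in control and 0.36, 2.02 and 1.35 in UV. In 1916 cases (71.7%) the host gene held a UV peak elsewhere. The other 755 peaks lay in 680 genes with no UV peak at all, whose median control input was 1.95 CPM, against 10.8 CPM for hosts with a UV peak.

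By exon class, 1226 (45.9%) lay in last exons, against 48.3% of the control peaks that overlap a UV peak, and 550 (20.6%) in internal exons of at least 400 bases, against 26.7%. Short internal exons held 346 (13.0%), against 9.73%, first exons 333 (12.5%), against 10.3%, and genes with 1 exon 216 (8.09%), against 4.96%. Genes annotated as long noncoding RNA held 86 (3.22%), against 1.32%, and protein-coding genes 88.5%, against 95.6%. Peaks called only in UV differed from the overlapping peaks in the same directions, with 47.0% in last exons, 18.8% in long internal exons, 11.8% in short internal exons, 15.8% in first exons, 6.62% in genes with 1 exon, 2.38% in long noncoding RNA genes and 92.3% in protein-coding genes. The first 10% of the merged exons held 14.3% of the control-only peaks, 11.7% of the overlapping ones and 17.0% of the peaks called only in UV. These classes also differ in read support, as given above, and its part in the shares was not tested.

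**Figure D4:**
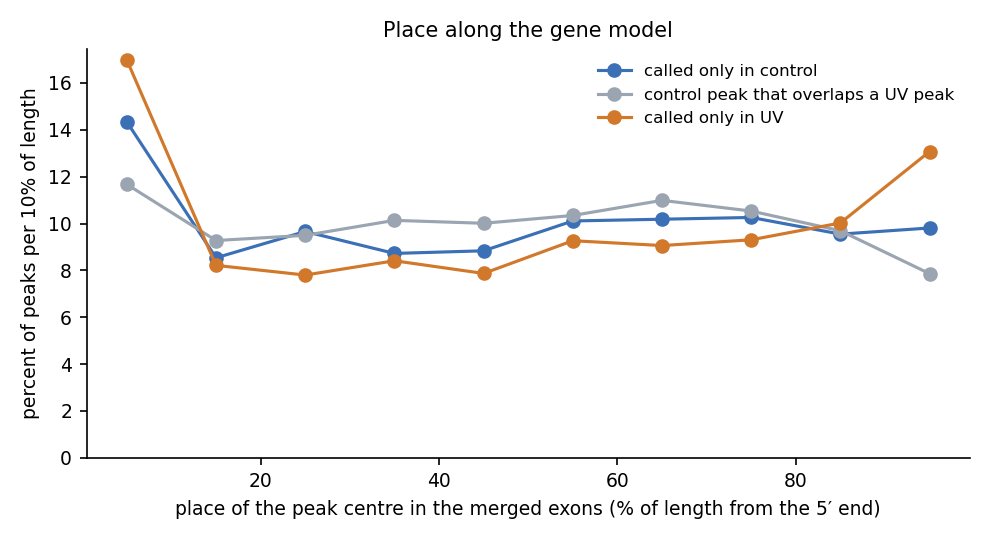
Percent of peaks in each 10% of the length of the host gene's merged exons, from the 5′ end, for the 3 classes. Control-only peaks hold 14.3% in the first 10% and 9.81% in the last, between the overlapping peaks (11.7% and 7.86%) and the peaks called only in UV (17.0% and 13.1%).

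Skeletal muscle genes held the largest share of control-only peaks among the gene lists. Of the 68 control peaks in their genes, 32 (47.1%) were control-only, against 14.8% of all control peaks. Titin (Ttn), the giant spring of the sarcomere, held 18 of its 50; outside Ttn the share was 14 of 18 (77.8%). Nebulin (Neb), which sets thin filament length, held 5 of 5, and the myosin heavy chain genes Myh1, Myh2 and Myh4 held 2 of 2, 3 of 3 and 1 of 1, with no UV peak in any of these 4 genes. Other genes of the list went the other way. Acta1, Pvalb and Atp2a1 held no control peak and 1, 2 and 1 UV peaks. Ryr1 and Tnni2 held no control-only peak among their 2 and 1 control peaks. The list also held 6 peaks called only in UV, in 4 of its genes. The 32 peaks share few transcripts and are not independent. They were deeply covered, with a median of 3562 control IP reads.

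Of these peaks, 31 of 32 had log2 IP over input above 0 in all 3 UV samples with factors from the gene table, and the median difference was -0.11. The Myh4 peak at chr11:67250980-67253247 had ratios of 1.07, 0.89 and 1.03 in control and 0.69, 0.87 and 0.78 in UV, with all control values above all UV values by a small margin. Its IP level was 1580, 3329 and 1662 CPM in control and 1078, 380 and 805 CPM in UV. The Tnnt3 peak, in fast troponin T, was more enriched, at 1.79, 1.78 and 1.75 in control and 1.29, 1.48 and 1.54 in UV. Across the muscle peaks, the log2 change of IP reads was below 0 for 31 of 32 with a median of -0.74. None of these falls passed the test: 0 were called in edgeR and 0 in DESeq2. An unadjusted p below 0.05 in edgeR was found for 21 of the 32. It was also found for 497 of the 2200 control-only peaks tested and 7135 of all 40903 peaks tested. The 32 peaks are not independent, so the 21 are not separate results.

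Muscle RNA itself varied between samples. The muscle list summed to 12818, 28709 and 16061 CPM of input in control and 11072, 5691 and 15721 CPM in UV, so Control 2 stood highest, UV 2 lowest and the conditions overlapped. Of 17 muscle genes tested, 0 rose and 2 fell, with a median log2 change of -1.08. The part that the amount of muscle in each piece of skin had in these calls was not tested.

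Hair follicle genes held 5 control-only peaks of 25, in Krt73, Tchh, Padi3 and Msx2. Tchh, which encodes trichohyalin of the inner root sheath, carried the deepest of all control-only peaks, at chr3:93445166-93445584, with 1001981, 1399935 and 298223 IP reads in control and 200407, 1331280 and 636066 in UV. The ratios were 1.07, 1.12 and 1.14 in control and 0.86, 0.88 and 0.86 in UV, tight within each condition and 298 bases from a UV peak. Krt73, an inner root sheath keratin, overlapped, at 0.59, 0.80 and 0.70 in control and 0.59, 0.80 and 0.65 in UV. Msx2, a homeobox factor of the hair bulb, had 5.51, 5.96 and 3.83 CPM of IP in control and 0.87, 1.99 and 2.20 CPM in UV, over host input of 37.9, 41.4 and 24.1 CPM and 10.2, 21.0 and 18.5 CPM. Of 21 hair genes tested on input, 1 fell and 0 rose.

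**Figure D5:**
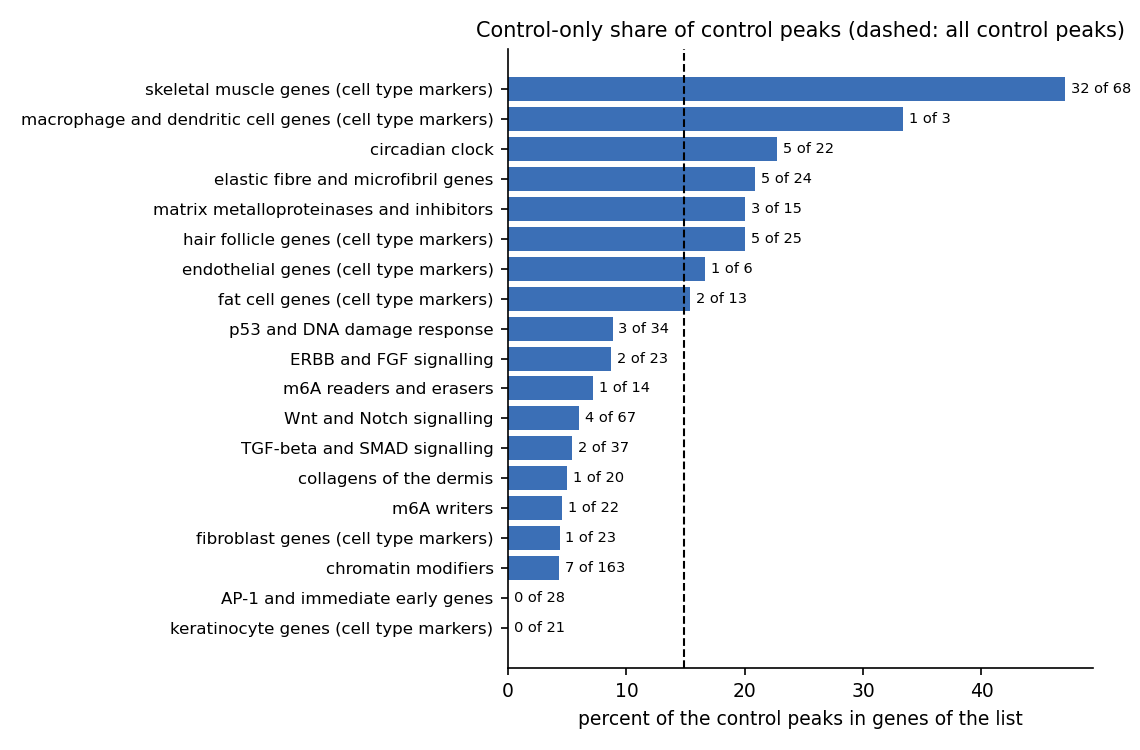
Share of the control peaks in each gene list that were control-only, with counts beside the bars and all control peaks (14.8%) as the dashed line. Skeletal muscle stands at 47.1% (32 of 68); the keratinocyte and AP-1 lists have 0.

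Of the 18 circadian clock genes tested on input, 9 rose and 2 fell, and their genes held 5 control-only peaks of 22 (22.7%), among them peaks in Dbp, Hlf and Bhlhe41. Hlf, a PAR bZIP factor like Dbp, had ratios of 0.97, 1.93 and 1.18 in control and 0.36, 1.01 and 0.09 in UV. Elastic fibre genes held 5 of 24, in Mfap1a, Mfap2, Efemp2 and Lox, the last an enzyme that crosslinks collagen and elastin. Mfap1a, listed with the microfibril genes by name and known as a splicing factor, had 1.24, 1.33 and 1.29 in control and 0.91, 0.94 and 1.01 in UV. Metalloproteinase and inhibitor genes held 3 of 15, in Adamts2, Adamts3 and Adamts14; Adamts2 removes the N-propeptide of fibrillar procollagens, and its ratios overlapped at 0.77, 1.12 and 1.62 in control and -0.16, 1.39 and 0.79 in UV.

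Other lists of signalling and repair genes held few. The p53 and DNA damage list held 3 control-only peaks of 34, in Xpc, which recognises UV lesions, the checkpoint kinase gene Atm and the translesion polymerase gene Rev3l, while 12 of its 26 tested genes rose on input and 0 fell. Atm had 0.69, 1.08 and 0.86 in control and 0.31, 0.00 and 0.27 in UV, without overlap. TGF-beta signalling held 2 of 37, in Smad2 and the inhibitory Smad7, Wnt and Notch signalling 4 of 67, in Axin2, Wnt5a and Hey1, and ERBB and FGF signalling 2 of 23, in Areg and Fgf10. Chromatin modifiers, whose long exons carry many peaks, held 7 of 163, in Kmt2a, Setd1a, Ash1l, Ep300, Crebbp, Arid1b and Chd7. Dermal collagens held 1 of 20, in Col6a5, at under 1 CPM of IP.

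Genes of the m6A machinery held few control-only peaks and more peaks called only in UV. Peaks called only in UV also outnumbered control-only peaks in the whole series, at 10166 (40.7% of UV peaks) against 2671. Writer genes held 1 control-only peak of 22, in Zc3h13, a component of the writer complex, with ratios of 1.12, 0.77 and 0.89 in control and 0.51, 0.65 and 0.44 in UV. Readers and erasers held 1 of 14, in Igf2bp2, with 0.79, 1.39 and 1.77 in control and 0.63, 0.00 and 0.30 in UV at under 1 CPM of IP. Peaks called only in UV numbered 6 in 4 of the writer genes and 6 in 5 of the reader and eraser genes. None of the 8 writer genes or 12 reader and eraser genes was called on input in edgeR, and an unadjusted p below 0.05 was found for 1 writer gene and 0 reader or eraser genes. Virma and Mfap4, the pair of genes in the study's title, held no control-only peak. Keratinocyte genes, with 21 control peaks, and AP-1 and immediate early genes, with 28, held 0. Fibroblast, fat, macrophage and endothelial markers held 1 of 23, 2 of 13, 1 of 3 and 1 of 6.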

How the data were processed

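The data were 12 MeRIP-seq libraries from 6 mouse skin samples, an IP and an input library each. The deposited tables gave raw read counts per gene and per peak, from reads aligned with STAR 2.5.3a to GRCm38, per the submitters' processing notes. The sources used here name no peak caller or read counter and do not say how duplicates were treated. The authors' fold change, p-value and FDR columns were not used. Deposited peak starts count from 0 and are printed counting from 1. Total counts per library ranged from 24126662 to 92163619, and intervals and floors would cover counting error only.

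Members were found by interval overlap. Log2 IP over input per sample is the difference of log2 CPM with a prior count of 2 reads, scaled by TMM factors of the gene table. Counts were filtered with filterByExpr and fitted with edgeR 4.0.16 in R 4.3.3 (quasi-likelihood, 4 group means, Benjamini-Hochberg adjusted p below 0.05), over all peaks or genes. DESeq2 1.42.0 was used as an alternative. The package limma 3.58.1 was present, but no limma model was fitted. The fits were also run on simulated counts. Known changes were put only into well covered features, with the same spread for all. The simulation therefore does not show how the fits perform at thin peaks or with replicates as uneven as these. Same-numbered IP and input libraries deviated together (correlations of 0.128 to 0.262, against -0.243 to -0.0338 for different numbers), so the sample number pairs IP with input. Same-numbered control and UV libraries did not (-0.0582 to 0.0585).

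Named peaks were the 10 with the highest control IP and the 10 largest falls and 5 largest rises without overlap at 1 CPM or more. Predicted and clone-based gene names were left out of these rankings, and 1 peak per gene was kept. Also named were up to 3 per gene list, the 5 genes with most members, and the members nearest the overlap limit. Others are said to be chosen later. The members and the 20 gene lists were chosen with earlier results of these data known. Alternatives were other scalings, filters, tools, prior counts and overlap rules, sample blocks and leaving out each sample.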

Additional observations from a re-analysis of the deposited data

Results flagged for a closer look

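With a block for the sample, which ties its IP to its input library, 25 control-only peaks differed between UV and control skin in log2 IP over input by the interaction test, and all 25 were lower in UV. They include peaks in Eif3b, Tax1bp1, Hnrnpk, Gja1, Stk4, Igbp1, Xrn2, Tle3, Phf6, Tchh, Mef2c, Top2a, Tfap2c, Tnnt3 and Ttn. Without the block the same test called 0. The peaks were chosen on this contrast, so the calls are not independent evidence of a change.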

How the results depend on the processing

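The number of control-only peaks was 2671 and stayed within 1.5 times of that with strand ignored, at least 100 bases from a UV peak, at least 10 control IP reads or, added after seeing the data since the deposited table gives no blocks, overlap judged on exon bases; at least 1000 bases from a UV peak left 1473. Peaks called enriched in control numbered 45 with TMM factors from the peak table and 51 with DESeq2, and in UV 12 and 9. Over all peaks tested the same counts were 5199 and 5352 in control and 6800 and 6273 in UV. These scalings centre IP against input on the typical peak. Peaks with lower IP over input in UV numbered 1 with DESeq2 and 25 with the replicate block (sample shared by IP and input). Peaks with lower IP reads numbered 89 with DESeq2 and 15 to 68 without 1 sample, those with higher IP reads 1 to 8. Over all peaks tested these were 723, 63 to 708 and 65 to 824. Hosts called higher numbered 28 by library size only, 107 with DESeq2, 25 with the replicate block, and 7 to 71 without 1 sample. All genes called higher numbered 455, 1316, 369 and 101 to 1237 in that order. Hosts called lower numbered 128 without a filter, 143 with DESeq2, 39 with the replicate block, and 16 to 120 without 1 sample. All genes called lower numbered 1126, 1258, 344 and 118 to 863 in that order. The peaks with all UV ratios above all control ratios numbered 33 by library size only. The cause of these differences was not tested. The median change of IP over input stayed within the spread of sample medians under every alternative run. Peaks called below input in control numbered 8, and 14 with the replicate block (180 and 246 over all peaks tested). Apart from this count and the block counts given above, the replicate block moved no count of called control-only peaks or hosts by more than 1.5 times. Of 1387 alternative values for 116 named peaks, 63 had a turned sign, none of a called value. No main value was called and only 26 alternative values were, so few calls could have turned. Depth limits single peaks: 971 have under 20 control IP reads.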
